A study of Mus musculus with 12 samples.

Results

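The 10 genes described here encode interferons, the chains of the cell-surface receptors that bind them and the Janus kinases attached to those chains. They are Ifnb1 and Ifng among the ligands, Ifnar1, Ifnar2, Ifngr1, Ifngr2 and Il10rb among the receptor chains, and Jak1, Jak2 and Tyk2 among the kinases. They were picked by gene symbol, and all 10 were among the 21627 symbols shared by the tables of both sets of libraries, which hold 33924 and 22609 gene rows. RNA was sequenced from whole lung of B6 mice aged 6 to 8 weeks, 14 to 16 h after PBS or an extract of the house dust mite D.f. (Dermatophagoides farinae). In the RNase III set, all of wild-type mice, 2 libraries came from mice given the extract together with RNase III, an enzyme that cuts double-stranded RNA, 2 from mice given the extract alone and 2 from mice given PBS. In the knockout set, 2 libraries came from TLR3MAVS double knockout mice given the extract, 2 from wild-type mice given the extract, 1 from a knockout mouse given PBS and 1 from a wild-type mouse given PBS. No group given RNase III without extract was among the libraries used here. The labels do not say whether replicates are separate animals, so the p-values rest on the spread among libraries, part or all of which could be technical.

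Interferon beta, the product of Ifnb1, is a type I interferon and binds a receptor made of the IFNAR1 and IFNAR2 chains, to which the kinases TYK2 and JAK1 are attached. Interferon gamma, the product of Ifng, is the type II interferon, made mainly by NK cells and T cells, and binds a receptor of IFNGR1 and IFNGR2, which carry JAK1 and JAK2. Type III (lambda) interferons bind IL28RA paired with IL10RB, a chain that also serves the receptors for IL-10 and IL-22. In each case the kinases phosphorylate STAT proteins, which enter the nucleus and switch on interferon-stimulated genes. Double-stranded RNA is sensed by TLR3 in endosomes and by RIG-I and MDA5 in the cytosol, which signal through MAVS, and both routes lead to type I interferon genes.

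Levels are given as CPM, read counts scaled to a common library size after TMM normalization within each set. Libraries held 15687699 to 25714074 assigned reads, so that the 3 reads that a count of 0 allows correspond to 0.117 to 0.191 CPM. Markers of alveolar type 2 cells summed to 4568 to 10450 CPM and those of alveolar type 1 cells were also found in every library, as in lung. Tlr3 had 14.8 and 10.1 CPM in knockout lungs with extract and 10.5 CPM in the knockout lung with PBS, against 156 and 113 CPM in wild-type lungs with extract and 42.4 CPM in the wild-type lung with PBS. Mavs had 2.66, 2.35 and 3.09 CPM in the same 3 knockout lungs, against 34.3, 32.2 and 36.4 CPM in the wild-type lungs. Both genes were lower in every library labelled knockout than in every wild-type library. The counts cover whole genes, and where the reads left in knockout lungs came from was not tested. Some libraries stood apart. The summed level of 7 cardiac muscle markers was 124 CPM in PBS replicate 1 and 1230 CPM, the highest of any library, in PBS replicate 2 of the RNase III set. It also differed between the groups compared. It was 172 to 193 CPM with extract and RNase III and 471 to 975 CPM with extract alone. In the knockout set, knockout lungs had 84.2 to 156 CPM with extract and 97.1 CPM with PBS. Wild-type lungs had 384 to 581 CPM with extract and 702 CPM with PBS. The part of cardiac tissue in the differences described here was not tested. The 2 knockout lungs with extract differed in Gbp2, a GTPase gene that interferon gamma induces, at 174 CPM in replicate 5 and 44.5 CPM in replicate 6. Counts of members and of list genes called that rest on these libraries are also given without them. Without either knockout lung with extract, the fit of the knockout set has 1 residual degree of freedom, its spread comes from the pair of wild-type lungs with extract, and many more genes were called. Between knockout and wild-type lungs with extract 20.0% of all genes were called without replicate 5 and 16.3% without replicate 6, against 2.53% with both, so a call of a member in such a fit stands beside a high share of all genes.

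The promoters shown are those of the 4 members that were higher with extract in the wild-type libraries of both sets together (Ifng, Ifnar2, Ifngr2 and Jak2) and that of Ifnb1, whose upstream region is the textbook example of a virus-inducible enhancer. Each runs 5′ to 3′ from 250 bases before to 50 bases after the annotated start, from RefSeq on GRCm38.p6, a later build than the one used for the counts. Of the 10 members, 9 matched the RefSeq promoter table by symbol, and Il10rb is named only. Capitals mark matches, on either strand, to the gamma-activated site TTCNNNGAA that STAT dimers bind, the interferon regulatory factor element AANNGAAA, and the NF-kappaB site GGGANNTTCC.
Ifnb1, chr4:88522745-88523044, minus strand: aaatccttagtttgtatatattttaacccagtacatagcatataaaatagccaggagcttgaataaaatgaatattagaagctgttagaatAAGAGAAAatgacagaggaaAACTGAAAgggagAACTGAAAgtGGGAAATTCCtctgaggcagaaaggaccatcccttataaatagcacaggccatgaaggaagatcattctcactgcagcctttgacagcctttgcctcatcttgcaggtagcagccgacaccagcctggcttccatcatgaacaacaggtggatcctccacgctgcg
Ifng, chr10:118440796-118441095, plus strand: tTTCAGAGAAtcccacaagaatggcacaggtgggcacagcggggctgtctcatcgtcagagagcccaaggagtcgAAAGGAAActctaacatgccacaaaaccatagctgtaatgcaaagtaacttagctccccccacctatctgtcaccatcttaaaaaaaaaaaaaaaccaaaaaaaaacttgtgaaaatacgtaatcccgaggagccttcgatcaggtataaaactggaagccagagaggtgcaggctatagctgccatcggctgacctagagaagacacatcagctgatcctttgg
Ifnar2, chr16:91372533-91372832, plus strand: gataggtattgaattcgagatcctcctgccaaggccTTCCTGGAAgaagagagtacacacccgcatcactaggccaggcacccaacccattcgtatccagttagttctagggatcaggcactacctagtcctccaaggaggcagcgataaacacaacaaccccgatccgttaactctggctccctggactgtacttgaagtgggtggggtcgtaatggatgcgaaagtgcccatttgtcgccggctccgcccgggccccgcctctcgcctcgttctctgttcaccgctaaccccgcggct
Ifngr2, chr16:91546809-91547108, plus strand: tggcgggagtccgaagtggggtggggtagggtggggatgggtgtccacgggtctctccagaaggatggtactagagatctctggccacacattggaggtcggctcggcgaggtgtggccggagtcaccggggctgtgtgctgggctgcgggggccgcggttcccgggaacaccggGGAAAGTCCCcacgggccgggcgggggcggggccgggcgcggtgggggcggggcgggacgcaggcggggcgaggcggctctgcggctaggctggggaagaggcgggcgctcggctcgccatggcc
Jak2, chr19:29251553-29251852, plus strand: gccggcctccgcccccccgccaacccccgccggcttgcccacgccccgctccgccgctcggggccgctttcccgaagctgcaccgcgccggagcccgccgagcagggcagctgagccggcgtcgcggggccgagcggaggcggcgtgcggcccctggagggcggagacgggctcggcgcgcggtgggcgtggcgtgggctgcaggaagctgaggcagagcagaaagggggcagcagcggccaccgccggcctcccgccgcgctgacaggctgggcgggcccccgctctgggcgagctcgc

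The Ifnb1 window held 3 matches to the IRF element, starting at positions -159, -139 and -126 from the start site, and 1 NF-kappaB match from -116 to -107. The Ifng window held a gamma-activated site match from -249 to -241 and an IRF match from -175 to -168. Among the receptor genes, Ifnar2 held a gamma-activated site match from -214 to -206, Ifnar1 held 1 across the start site, from -5 to 4, and Ifngr2 held an NF-kappaB match from -75 to -66. The windows of Jak1, Jak2, Tyk2 and Ifngr1 held none of these letters. The longer interferon-stimulated response element GAAANNGAAA, which contains the IRF element, was in none of the 9 windows. Among 32851 promoter windows of 300 bases, 8.30% held the gamma-activated site, 23.9% the IRF element, 1.47% the NF-kappaB site and 3.44% the response element. A match is a run of letters and says nothing about binding in these lungs.

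In the annotation of NCBIM37 (mm9), the build of the counts, 4 of the 5 receptor chains lie side by side on chromosome 16. Ifnar2 (chr16:91373028-91419696), Il10rb (chr16:91406409-91426074), Ifnar1 (chr16:91485483-91507686) and Ifngr2 (chr16:91547317-91565414) are all on the plus strand and together span 192387 bases. Ifnar2 and Il10rb overlap by 13288 bases and share 569 exon bases, so reads in that stretch could not be told apart. Ifngr1 (chr10:19311755-19330035, plus strand) and Ifng (chr10:117878103-117882948, plus strand) are both on chromosome 10. Ifnb1 (chr4:88167929-88168698, minus strand) and Jak1 (chr4:100824972-100937887, minus strand) are on chromosome 4, Jak2 is at chr19:29326318-29387570 on the plus strand and Tyk2 at chr9:20908521-20931790 on the minus strand.

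The 2 interferon genes were counted in few reads, and most of those reads came from wild-type lungs given the extract without RNase III. Ifng had 5 and 3 reads (0.275 and 0.161 CPM) with extract and RNase III, 30 and 41 reads (1.19 and 1.79 CPM) with extract alone, and 1 and 3 reads (0.0553 and 0.136 CPM) with PBS. Of the knockout set's libraries, it had 1 and 4 reads (0.0532 and 0.200 CPM) in knockout lungs with extract, 21 and 7 reads (1.04 and 0.420 CPM) in wild-type lungs with extract, 2 reads (0.126 CPM) in the knockout lung with PBS and 2 reads (0.114 CPM) in the wild-type lung with PBS. All 4 wild-type libraries with extract alone lay above the other 8 libraries. Of all genes tested, 10.5% had these 4 libraries above the wild-type libraries with PBS, and the share above all other 8 was not counted. By the quasi-likelihood test of edgeR, whose p-values were adjusted over all genes tested by the Benjamini-Hochberg method as in every comparison here, Ifng was higher with extract than with PBS in the RNase III set by 3.83 ± 0.59 on the log2 scale (SE; adjusted p = 0.00802). It was lower with extract and RNase III than with extract alone, at -2.74 ± 0.53 (adjusted p = 0.0245). When wild-type libraries of both sets were fitted together, with a term for the set, it was higher with extract than with PBS by 3.45 ± 0.57 (adjusted p = 0.00668).

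The Ifng calls within the RNase III set rested on single libraries. Without extract replicate 4 the difference between extract and PBS had an adjusted p of 0.0821. The difference between extract with RNase III and extract alone lost its call without any 1 of the 4 libraries compared, with adjusted p of 0.0907 to 0.218. Over both sets the call held without each library in turn. In wild-type lungs of the knockout set Ifng differed by 2.64 ± 1.12 between extract and PBS (adjusted p = 0.314), and in extract-treated lungs it differed by -2.47 ± 0.82 between knockout and wild type (adjusted p = 0.207), neither passing the test. That difference between genotypes passed without knockout replicate 6, at -3.65 (adjusted p = 0.0442). As sums of reads over each group, the ratio of extract over PBS was 14.8 in the RNase III set (71 against 4 reads; exact binomial 95% interval 5.54 to 55.8, which covers counting error only). The ratio of extract over PBS in knockout lungs was 1.02 (5 against 2 reads; 0.167 to 10.7), an interval too wide to show either a change or its absence at this depth.

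Ifnb1 had 0 and 1 reads with extract and RNase III, 7 and 10 reads (0.278 and 0.436 CPM) with extract alone, and no reads in either PBS library of the RNase III set. In the knockout set, neither knockout lung with extract had a read, the wild-type lungs with extract had 2 and 0 reads (0.0986 CPM in replicate 3), and the PBS libraries had none. Of the 20 Ifnb1 reads in the 12 libraries, 19 came from 3 of the 4 wild-type libraries with extract alone. Ifnb1 fell below the filter on low counts and was not among the genes tested. Without that filter edgeR gave Ifnb1 an adjusted p of 0.0532 (unadjusted 0.00491) for extract over PBS in the RNase III set, 0.163 (0.0197) for extract with RNase III over extract alone and 0.0572 (0.00774) for extract over PBS in wild-type lungs of both sets. Summed over the group, extract alone stood 4.73-fold above PBS in the RNase III set when 17 reads were set against a floor of 3 reads over the group. That value leaves out the counting error of the 17 reads. The summed level with extract and RNase III was 0.0769 times that with extract alone (1 against 17 reads; exact binomial 95% interval 0.00184 to 0.491). In wild-type lungs of both sets Ifnb1 averaged 0.203 CPM with extract (n = 4) and 0 CPM with PBS (n = 3). A two-sided exact permutation test over 35 arrangements, which treats libraries of the 2 sets as exchangeable, gave p = 0.257 (smallest possible p 0.0286). With the labels permuted within each set only, an alternative chosen after the data were seen, the exact p over 18 arrangements was 0.278, where the smallest possible p of 0.0556 cannot pass the threshold.

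**Figure D1:**
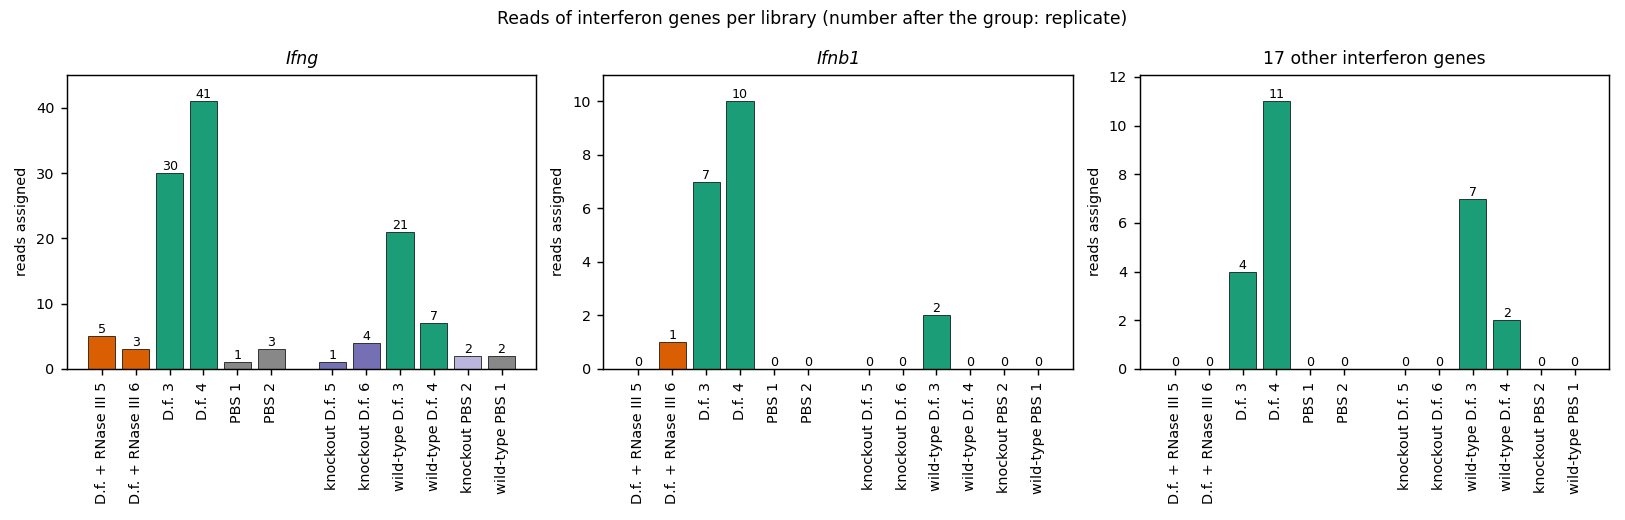
Reads counted in each library for Ifng, for Ifnb1 and for 17 other interferon genes summed (y axes, reads, each panel with its own scale). Bars are single libraries in order of group. Ifng reached 41 reads and Ifnb1 10 reads, both in extract replicate 4 of the RNase III set, and the 17 other genes were at 0 in 8 of the 12 libraries.

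Of 21 other type I and type III interferon symbols sought, 17 were in the tables of both sets, 12 of them Ifna genes. Their reads summed to 0 and 0 with extract and RNase III, 4 and 11 with extract alone and 0 and 0 with PBS. The sums were 0 and 0 in knockout lungs with extract, 7 and 2 in wild-type lungs with extract, and 0 in each PBS library of the knockout set. All of these reads fell in the 4 wild-type libraries that received extract without RNase III, whereas Ifng had at least 1 read in every library and Ifnb1 had 1 read in a library with RNase III. The most read were Ifna2, with 4 reads in extract replicate 4 and 1 read in each wild-type library with extract of the knockout set, and the interferon lambda genes Il28a and Il28b, with 5 reads each over all libraries. Ifna genes are near-identical copies, and the deposited counts leave out reads that align to more than 1 place, so their counts are uncertain.

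Markers of cells that make these interferons followed the reads in part. The summed level of 8 NK cell markers was 27.8 to 29.0 CPM with extract and RNase III, 72.6 to 86.2 CPM with extract alone and 25.8 to 37.3 CPM with PBS. It was 15.2 to 29.5 CPM in knockout lungs with extract, 37.5 to 38.0 CPM in wild-type lungs with extract, 53.5 CPM in the knockout lung with PBS and 14.1 CPM in the wild-type lung with PBS. Of the NK markers, 5 of 8 were higher with extract than with PBS in the RNase III set, and 6 of 8 were lower with extract and RNase III than with extract alone. The summed level of the T cell markers was 45.1 to 49.2 CPM with extract and RNase III, 92.8 to 94.9 CPM with extract alone and 51.0 to 66.9 CPM with PBS. Of 9 T cell markers, 3 were higher with extract than with PBS and 6 were lower with RNase III added. In the knockout set the T cell sum was 30.5 to 33.8 CPM in knockout lungs with extract and 55.9 to 61.0 CPM in wild-type lungs with extract. It was 45.7 CPM in the knockout lung with PBS and 29.1 CPM in the wild-type lung with PBS. Of 8 T cell markers tested there, 1 was lower in knockout than in wild-type lungs with extract. In the RNase III set the NK and T cell sums were thus highest with extract alone, as were the Ifng reads. In the knockout set the T cell sum was also highest in wild-type lungs with extract. The highest NK sum there was that of the knockout lung with PBS, which had 2 Ifng reads. Markers of plasmacytoid dendritic cells, a main source of type I interferon, summed to 11.2 to 12.7 CPM with extract and RNase III. The sum was 23.6 to 29.1 CPM with extract alone and 17.3 to 52.0 CPM with PBS, so that a PBS library without Ifnb1 reads had the highest sum. That library, PBS replicate 2, also had the highest sum of cardiac muscle markers, at 1230 CPM. The cardiac sums of the knockout set differed too, at 84.2 to 156 CPM in knockout and 384 to 581 CPM in wild-type lungs with extract. Whether cardiac tissue added to the plasmacytoid sums or markers in this or any other library was not tested. The plasmacytoid sums were 6.55 to 9.94 CPM in knockout lungs with extract and 25.3 to 30.4 CPM in wild-type lungs with extract. Of 4 markers tested, 3 were lower in knockout than in wild-type lungs with extract. With PBS the sums were 9.46 CPM in the knockout lung and 11.3 CPM in the wild-type lung. Apart from 1 plasmacytoid marker in the wild-type lung with PBS, none of the NK, T cell or plasmacytoid markers was at 0 in any library. The part of these cells in the interferon reads was not tested, and in whole lung fewer cells of a type and less RNA per cell cannot be told apart.

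The receptor chains were all well above the limits of counting, with 787 reads or more for each in every library. Per kilobase of exon, Ifngr1 was the most abundant chain in every library, at 40.1 to 66.0 CPM per kilobase. Ifnar2 followed at 17.9 to 28.6, Ifngr2 at 14.9 to 26.9 and Ifnar1 at 15.3 to 25.0 CPM per kilobase, and these 3 ranges overlapped. Il10rb was at 10.9 to 18.7 CPM per kilobase. Across all 12 libraries the highest level of a chain was 1.60 (Ifnar2) to 1.81 (Ifngr2) times its lowest level in CPM.

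Ifnar2, the chain that carries JAK1 in the type I receptor, was the receptor gene with the clearest difference. It had 77.0 and 78.9 CPM with extract and RNase III, 106 and 107 CPM with extract alone, and 69.7 and 71.3 CPM with PBS. Among the genotypes it had 81.1 and 91.7 CPM in knockout lungs with extract, 111 and 103 CPM in wild-type lungs with extract, 87.2 CPM in the knockout lung with PBS and 71.9 CPM in the wild-type lung with PBS. All 4 wild-type libraries with extract alone lay above the other 8 libraries, as for Ifng, although levels of the 2 sets were scaled separately. These 4 libraries lay above the wild-type libraries with PBS for 10.5% of all genes tested. The share above all other 8 was not counted. Ifnar2 was higher with extract than with PBS by 0.59 ± 0.11 in the RNase III set (adjusted p = 0.0151), a 1.51-fold difference that lost its call without either extract library (adjusted p = 0.0815 and 0.0981) or without either library with RNase III (0.0693 and 0.0718). In the joint fit of wild-type lungs it was higher by 0.56 ± 0.08 (adjusted p = 0.00291), and this call held without each library in turn. Between extract with RNase III and extract alone the difference of -0.45 ± 0.11 had an adjusted p of 0.0517, which fell under 0.05 in DESeq2 (0.0162), in 1 fit over all 12 libraries (0.0287) and without PBS replicate 1 (0.0207) or 2 (0.0195).

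In wild-type lungs of the knockout set, Ifnar2 differed by 0.58 ± 0.13 between extract and PBS (adjusted p = 0.118), close in size to the RNase III set. In knockout lungs it differed by -0.01 ± 0.13, with a 95% interval of -0.33 to 0.31. The difference between these responses was -0.59 ± 0.18 (adjusted p = 0.378, unadjusted p = 0.0195), which passed without knockout extract replicate 5 (adjusted p = 0.0315) or replicate 6 (0.00979). With 1 PBS library of each genotype, the spread of the PBS groups was taken from the other groups. Of the 9 members tested, Ifnar2 was the only 1 with an unadjusted p under 0.05 for this difference in response, as had 9.68% of all genes, a share close to 1 of 9.

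Ifnar1, its partner, which carries TYK2, had 97.7 and 104 CPM with extract and RNase III, 114 and 111 CPM with extract alone and 108 and 89.7 CPM with PBS. It had 119 and 142 CPM in knockout lungs with extract, 147 and 145 CPM in wild-type lungs with extract, 129 CPM in the knockout lung with PBS and 131 CPM in the wild-type lung with PBS. In each set the wild-type libraries with extract alone were the highest, but the groups lay close together, and Ifnar1 passed the test in no comparison. The joint fit of wild-type lungs gave 0.15 between extract and PBS (adjusted p = 0.298). Without knockout replicate 6 it was lower in knockout than in wild-type lungs with extract, at -0.30 (adjusted p = 0.0431).

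**Figure D2:**
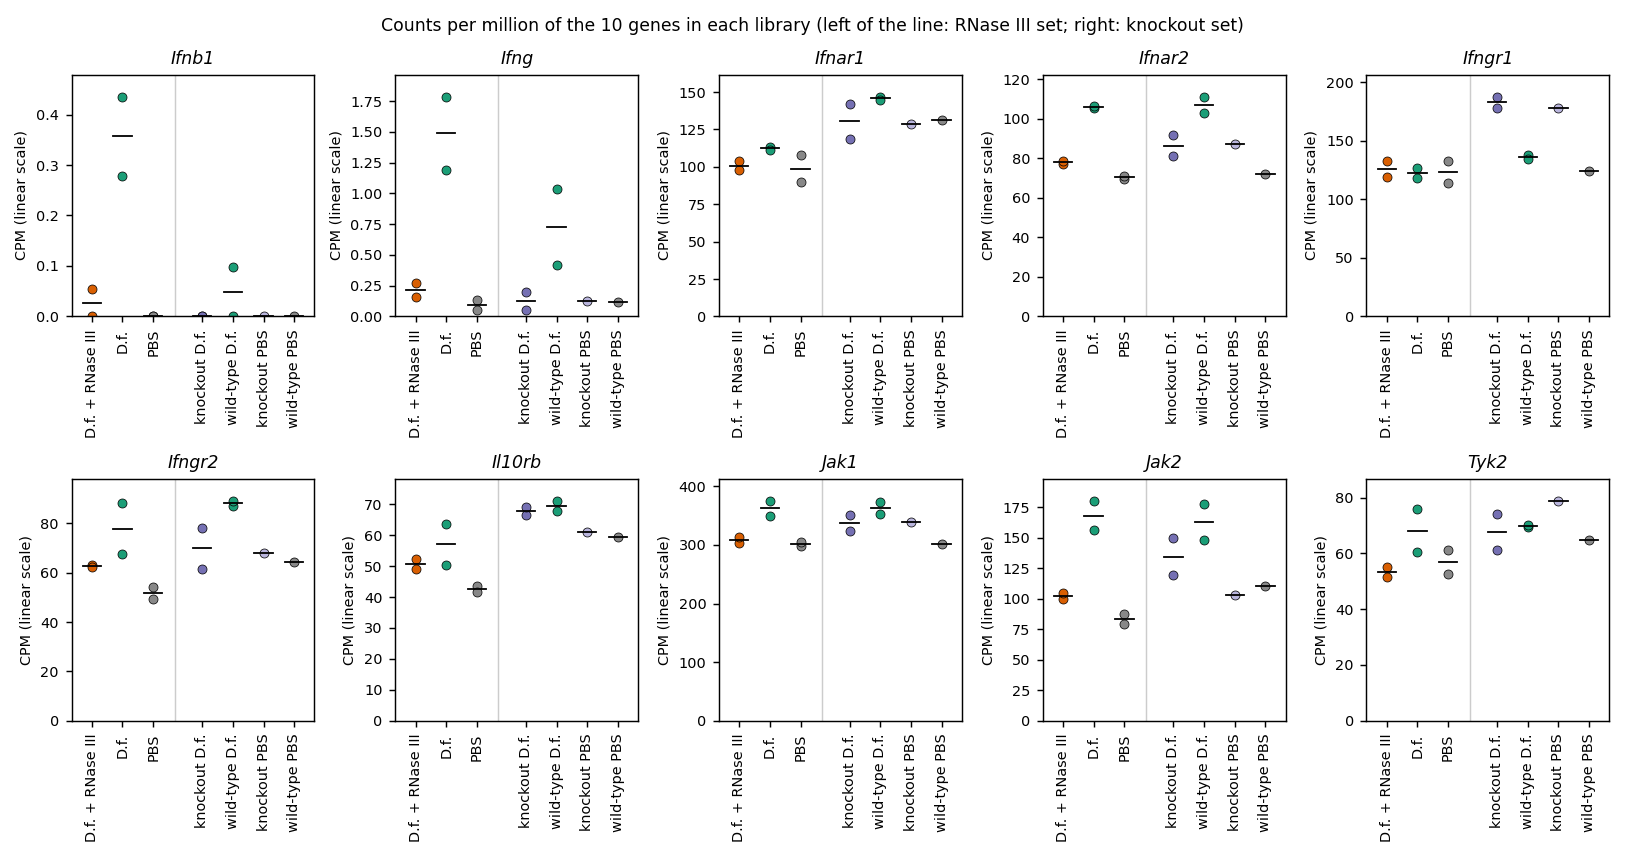
Level of each of the 10 genes in each library (y axes, CPM after TMM scaling within each set; each panel has its own scale). Points are libraries, bars are group means, and the RNase III set stands left of the knockout set. For Ifng, Ifnar1, Ifnar2, Ifngr2 and Jak1 the wild-type points with extract alone are the highest of each set, by narrow margins for Ifnar1 and Jak1 in the knockout set. Ifngr1 is highest in the 3 knockout libraries.

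The 2 chains of the interferon gamma receptor differed in pattern. Ifngr2, the chain that carries JAK2, had 63.0 and 62.4 CPM with extract and RNase III, 88.2 and 67.4 CPM with extract alone, and 54.1 and 49.3 CPM with PBS. Its levels were 61.6 and 78.1 CPM in knockout lungs with extract, 87.1 and 89.1 CPM in wild-type lungs with extract, 68.0 CPM in the knockout lung with PBS and 64.3 CPM in the wild-type lung with PBS. Both extract libraries lay above both PBS libraries in wild-type lungs of the RNase III set, as for 25.6% of all genes tested. The difference there of 0.59 ± 0.15 had an adjusted p of 0.0510. It passed in DESeq2 (0.0160), without the filter on low counts (0.0314), in 1 fit over all 12 libraries (0.0343) and without PBS replicate 1 (0.0414). Ifngr2 was higher with extract in the joint fit of wild-type lungs, by 0.51 ± 0.11 (adjusted p = 0.0205). That call was lost without extract replicate 3 of the RNase III set (0.0579), wild-type extract replicate 3 (0.0563) or the wild-type PBS library (0.0548) of the knockout set.

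Ifngr1, the chain that binds the ligand and carries JAK1, had 133 and 119 CPM with extract and RNase III, 127 and 118 CPM with extract alone and 114 and 133 CPM with PBS, so that the 3 groups overlapped. Between extract and PBS in the joint fit it differed by 0.02 ± 0.09, with a 95% interval of -0.20 to 0.24. Ifngr1 had 178 and 188 CPM in knockout lungs with extract and 178 CPM in the knockout lung with PBS, against 138 and 134 CPM in wild-type lungs with extract and 124 CPM in the wild-type lung with PBS. The 3 knockout libraries lay above the 3 wild-type libraries, as for 9.34% of all genes tested. Among lungs with extract Ifngr1 differed by 0.43 ± 0.09 between knockout and wild type (adjusted p = 0.0853), which passed in DESeq2 (0.0364) and without knockout replicate 5 (0.000545) or replicate 6 (0.00732). In a comparison chosen after these values were seen, knockout over wild type across all 6 libraries with treatment as a term, it differed by 0.46 ± 0.07 (95% interval 0.29 to 0.63). Its unadjusted p of 0.000538 ranked at 96 among 15294 genes and the adjusted p was 0.0857. The adjusted p was 2.9e-05 in DESeq2.

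The level per kilobase of Ifngr1 over that of Ifngr2 shows both patterns at once. The ratio was 2.45 and 2.23 with extract and RNase III, 1.68 and 2.04 with extract alone, and 2.46 and 3.14 with PBS. In the knockout set it was 3.37 and 2.80 in knockout lungs with extract, 1.84 and 1.75 in wild-type lungs with extract, 3.05 in the knockout lung with PBS and 2.25 in the wild-type lung with PBS. The 4 wild-type libraries with extract alone had the 4 lowest ratios of the 12. The ratio of Ifnar2 over Ifnar1 was 1.19 and 1.14 with extract and RNase III, 1.40 and 1.44 with extract alone and 0.976 and 1.20 with PBS. It was 1.03 and 0.975 in knockout lungs with extract, 1.14 and 1.07 in wild-type lungs with extract, 1.02 in the knockout lung with PBS and 0.828 in the wild-type lung with PBS. Within each set the highest ratios of Ifnar2 over Ifnar1 were those of the wild-type lungs with extract alone.

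Il10rb, the shared chain of the IL-10, IL-22 and lambda interferon receptors, had 52.4 and 49.1 CPM with extract and RNase III, 63.6 and 50.5 CPM with extract alone, and 43.5 and 41.6 CPM with PBS. It had 66.5 and 69.3 CPM in knockout lungs with extract, 71.1 and 67.9 CPM in wild-type lungs with extract, 60.9 CPM in the knockout lung with PBS and 59.3 CPM in the wild-type lung with PBS. Within each set every PBS library lay below every library with extract, whether or not RNase III was added and in both genotypes. Taken singly, such an order is common. In the RNase III set it held for 25.6% of all genes tested with extract alone and 16.4% with RNase III added. In the knockout set it held for 42.4% in wild-type and 33.3% in knockout lungs. Il10rb passed the test in no comparison. The joint fit of wild-type lungs gave 0.32 ± 0.11 between extract and PBS (adjusted p = 0.0819). In knockout lungs it differed by 0.16 ± 0.11. Reads in the exon stretch shared with Ifnar2 could belong to either gene.

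Jak2, the kinase attached to IFNGR2 and to the receptors for IL-12 and granulocyte-macrophage colony-stimulating factor among others, had the widest range of the receptor and kinase genes, and its highest level over the 12 libraries was 2.27 times its lowest. It had 99.5 and 104 CPM with extract and RNase III, 156 and 180.1 CPM with extract alone, and 87.5 and 79.2 CPM with PBS. Jak2 had 119 and 149.6 CPM in knockout lungs with extract, 178 and 148 CPM in wild-type lungs with extract, 103 CPM in the knockout lung with PBS and 111 CPM in the wild-type lung with PBS. The 3 groups of the RNase III set did not overlap, with extract alone the highest, whereas knockout replicate 6 lay within the range of the wild-type lungs with extract. Of all genes tested, 25.6% had extract alone and 16.4% had extract with RNase III wholly above PBS. Extract with RNase III lay wholly below extract alone for 30.7%. The share with all 3 orders at once was not counted. Jak2 was higher with extract than with PBS by 1.01 ± 0.13 in the RNase III set (adjusted p = 0.00366), a 2.01-fold difference that held without each library in turn. It was lower with extract and RNase III than with extract alone, at -0.72 ± 0.13 (adjusted p = 0.0180), a call lost without extract replicate 4 (0.125) or without replicate 5 (0.253) or 6 (0.148) of the RNase III group. Over the wild-type libraries of both sets it was higher with extract by 0.80 ± 0.13 (adjusted p = 0.00595), again without exception when each library was left out.

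Jak2 in extract-treated lungs with RNase III differed from PBS by 0.29 ± 0.13 (adjusted p = 0.960). In knockout lungs it differed by 0.38 ± 0.19 between extract and PBS (adjusted p = 0.819), and without knockout replicate 5 this difference passed (adjusted p = 0.00302), as did 13.7% of all genes. The difference in response between genotypes was -0.18 ± 0.26 with a 95% interval of -0.84 to 0.48, so a difference between the genotypes was not detectable for Jak2 at this number of libraries. Against wild-type lungs with extract the knockout lungs differed by -0.28 ± 0.15 (adjusted p = 0.408), which passed without replicate 6 at -0.45 (0.00874).

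Jak1, the kinase shared by the receptors for all 3 types of interferon, had the highest CPM of the members and the steadiest level, with a highest value 1.26 times its lowest. It had 303 and 314 CPM with extract and RNase III, 375 and 349.6 CPM with extract alone, and 298 and 305 CPM with PBS. It had 324 and 352 CPM in knockout lungs with extract, 373 and 353 CPM in wild-type lungs with extract, 339 CPM in the knockout lung with PBS and 301 CPM in the wild-type lung with PBS. In each set both wild-type libraries with extract alone were the highest, the nearest pair being 353 and 352 CPM in the knockout set. The difference between extract and PBS over both sets was 0.24 ± 0.09 (adjusted p = 0.107), or 0.0395 in DESeq2. Per kilobase Jak1 was at 41.2 to 51.9 CPM, a range that overlaps that of Ifngr1.

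Tyk2, the kinase attached to IFNAR1 and IL10RB, had 51.5 and 55.2 CPM with extract and RNase III, 60.4 and 76.1 CPM with extract alone and 61.4 and 52.5 CPM with PBS. It had 74.1 and 61.2 CPM in knockout lungs with extract, 69.5 and 70.0 CPM in wild-type lungs with extract, 78.9 CPM in the knockout lung with PBS and 64.9 CPM in the wild-type lung with PBS. Its groups overlapped in most comparisons and it passed none. In knockout lungs it differed by -0.22 ± 0.14 between extract and PBS, and by -0.37 without knockout replicate 5 (adjusted p = 0.0349). Per kilobase Jak2 stood above Tyk2 in every library, by a ratio of 1.77 and 1.73 with extract and RNase III, 2.37 and 2.17 with extract alone and 1.31 and 1.38 with PBS. The ratio was 1.47 and 2.24 in knockout lungs with extract, 2.34 and 1.94 in wild-type lungs with extract, 1.20 in the knockout lung with PBS and 1.56 in the wild-type lung with PBS. The ratios with extract alone lay above those of the other groups in the RNase III set, and knockout replicate 6 lay among the wild-type lungs with extract in the knockout set.

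**Figure D3:**
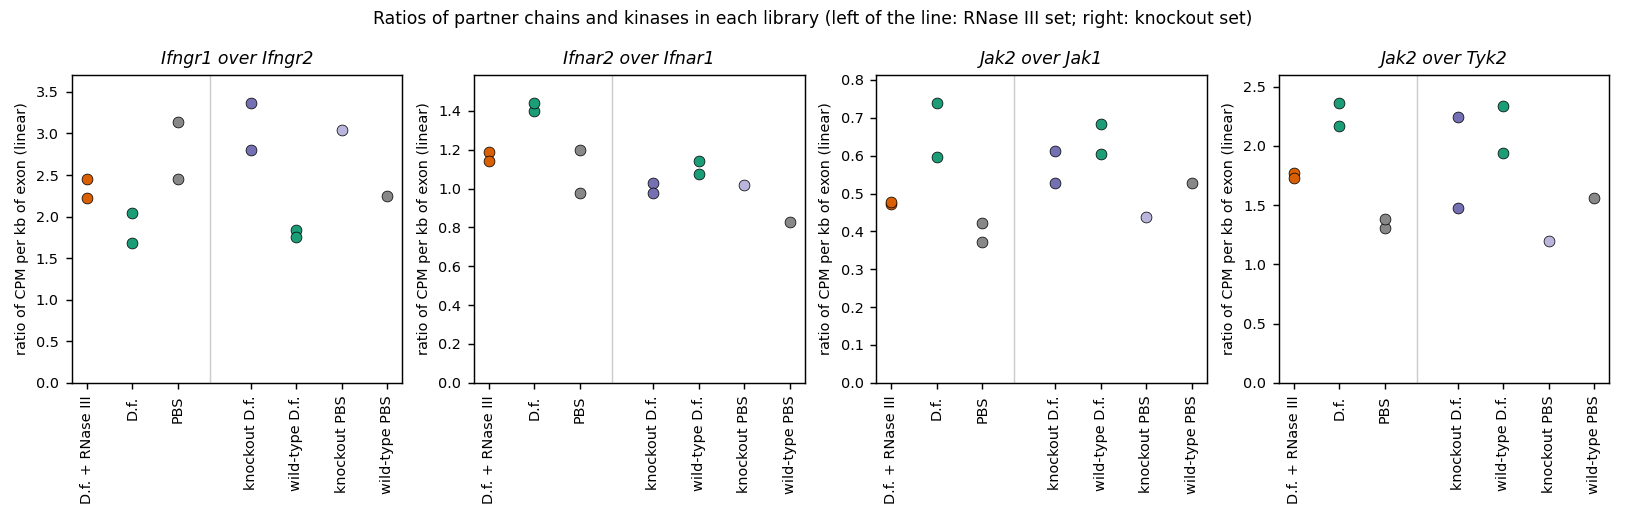
Ratios of levels per kilobase of exon between chains of 1 receptor (Ifngr1 over Ifngr2, Ifnar2 over Ifnar1) and between kinases (Jak2 over Jak1, Jak2 over Tyk2) in each library (y axes, ratio). Points are single libraries. In the RNase III set the ratio of Jak2 over Jak1 was 0.472 and 0.477 with extract and RNase III, 0.597 and 0.740 with extract alone and 0.422 and 0.373 with PBS.

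Counted over all members, 9 of the 10 entered the tests. With extract against PBS in the RNase III set, 3 of 9 were higher (Ifng, Ifnar2 and Jak2) and none lower, where 11.0% of all 17165 genes tested were called in either direction, 6.51% higher and 4.50% lower. Their median difference was 0.42, against -0.01 over all genes tested. With RNase III added to the extract, 2 of 9 were lower than with extract alone (Ifng and Jak2), where 7.26% of genes were called, 4.85% lower and 2.41% higher, and the medians were -0.31 for the members and -0.00 for all genes. Between extract with RNase III and PBS, edgeR called no member, none had an unadjusted p under 0.05, and DESeq2 called none. The share of all genes called there was 0.00583%, or 1 gene, and 835 genes had an unadjusted p under 0.05. The median over the members was 0.14, with -0.02 over all genes. Over the wild-type libraries of both sets, 4 of 9 members were higher with extract (Ifng, Ifnar2, Ifngr2 and Jak2), where 14.7% of 15481 genes were called, 8.53% higher and 6.18% lower, and the medians were 0.32 and -0.03. The 2 comparisons of extract share libraries with each other, so their calls are not separate evidence. The difference in response to extract between the wild-type lungs of the sets passed for no gene in edgeR, and for Jak2 it was 0.44 (unadjusted p = 0.0903).

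In the knockout set no member passed in edgeR in any comparison. In wild-type lungs, where 1.52% of 15294 genes were called between extract and PBS, 3 members had an unadjusted p under 0.05 (Ifnar2, Jak2 and Ifngr2), as did 2615 of all genes. DESeq2 called no member there, and in edgeR these 3 passed without knockout extract replicate 5 or 6 (adjusted p = 0.000105 to 0.00409), in fits that called 20.7% and 19.6% of all genes. In knockout lungs 0% of genes were called between extract and PBS, no member and 847 of all genes had an unadjusted p under 0.05, and DESeq2 called 37 genes and no member. Between knockout and wild-type lungs with extract 2.53% of genes were called, 0.517% higher and 2.01% lower. In that comparison 4 members had an unadjusted p under 0.05, as had 18.2% of all genes, and DESeq2 called 1 member, Ifngr1. For the difference in response 0.00654% of genes were called in edgeR and 212 genes in DESeq2, and 1 member had an unadjusted p under 0.05 with none called in either. Besides Ifnar2, Ifngr2 passed there without knockout extract replicate 6 (adjusted p = 0.0210) and Tyk2 without replicate 5 (0.0493), where 8.15% and 10.9% of all genes were called. For knockout over wild type across treatments 0.203% were called, 0.0262% higher and 0.177% lower. There 2 members had an unadjusted p under 0.05, as had 14.4% of all genes, and DESeq2 called 1. The median over the members was 0.27 between extract and PBS in wild-type lungs and 0.03 in knockout lungs, against 0.01 over all genes in each. Without knockout replicate 6, 6 members passed between knockout and wild-type lungs with extract, 5 of them lower (Ifng, Ifnar1, Ifnar2, Ifngr2 and Jak2) and Ifngr1 higher, where 16.3% of all genes were called, and without replicate 5 Ifngr1 alone passed, where 20.0% were called. Without PBS replicate 2 of the RNase III set, the library with high cardiac markers, the same 3 members were higher with extract than with PBS, and the same 4 over both sets, where 17.6% and 14.7% of all genes were called.

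**Figure D4:**
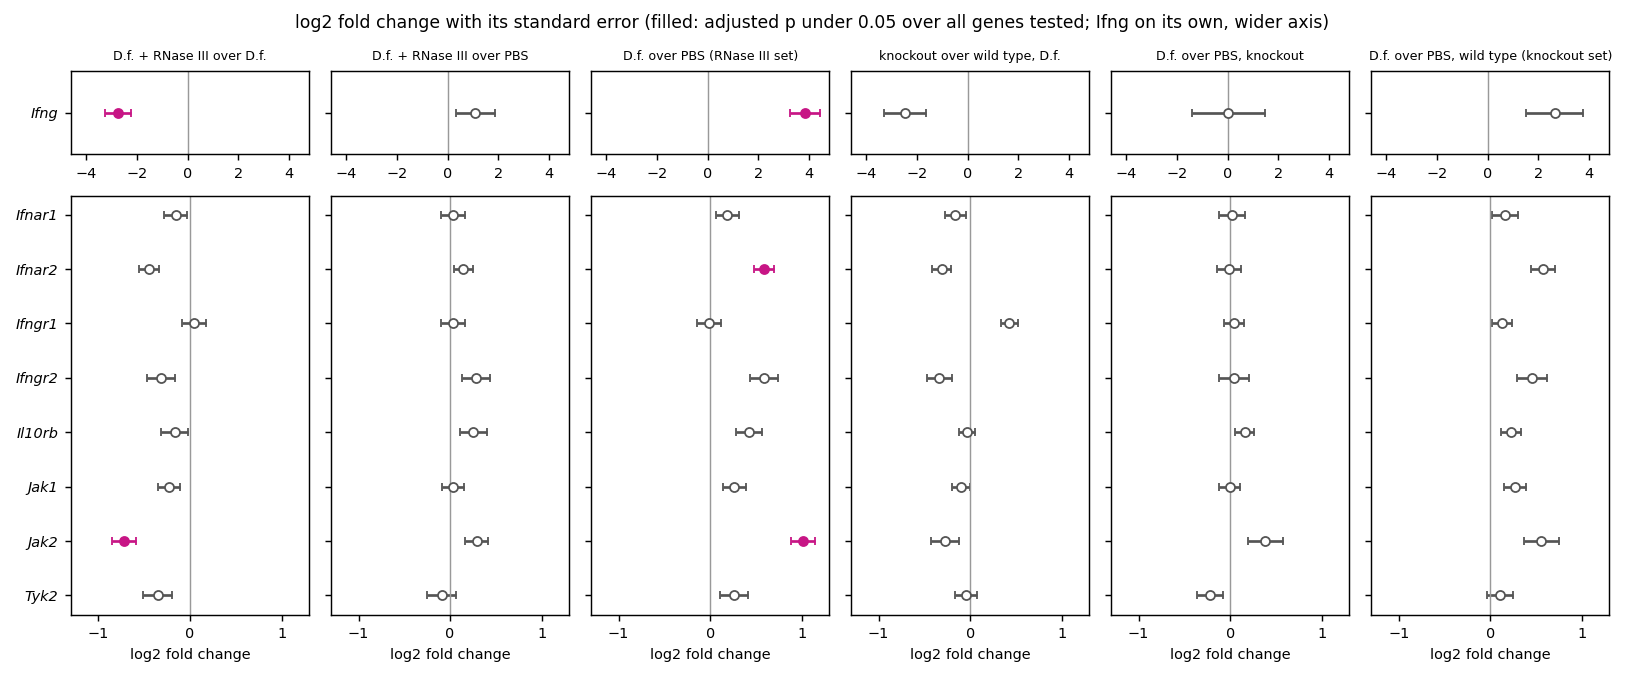
Log2 fold changes of the 9 tested members in 6 comparisons (x axes; points with bars of ± 1 SE from the edgeR fit). The top row holds Ifng on a wider axis and the bottom row the other 8 genes, and filled points passed the test at an adjusted p under 0.05. The filled points are Ifng and Jak2 for extract with RNase III over extract alone, and Ifng, Ifnar2 and Jak2 for extract over PBS in the RNase III set.

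The chromosome 16 receptor genes were also set beside their neighbours. Of 14 genes tested in the stretch from Synj1 to Itsn1, 2 were higher with extract over the wild-type libraries of both sets (Ifnar2 and Ifngr2) and 2 were lower. Among all genes tested, 8.53% were higher and 6.18% lower, and over 14 genes such small counts cannot be told apart from those shares. The lower genes were Tmem50b and Dnajc28, which follow Ifngr2 on the chromosome. Tmem50b, a membrane protein gene, had 91.2 and 83.7 CPM with extract and RNase III, 61.3 and 55.7 CPM with extract alone, and 74.9 and 82.6 CPM with PBS. It differed by -0.43 ± 0.08 between extract and PBS over both sets (adjusted p = 0.0132), and it was higher with extract and RNase III than with extract alone by 0.58 ± 0.12 (adjusted p = 0.0344). Dnajc28, which encodes a DnaJ-domain protein, had 7.05 and 5.62 CPM with extract and RNase III, 2.97 and 3.35 CPM with extract alone and 6.14 and 5.07 CPM with PBS. It differed by -0.90 ± 0.19 over both sets (adjusted p = 0.0185). Levels of Tmem50b and Dnajc28 are given because of their values, so they do not stand for the neighbours as a whole. The median over the 14 genes, receptor genes included, was 0.14 over both sets, against -0.03 over all genes tested.

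**Figure D5:**
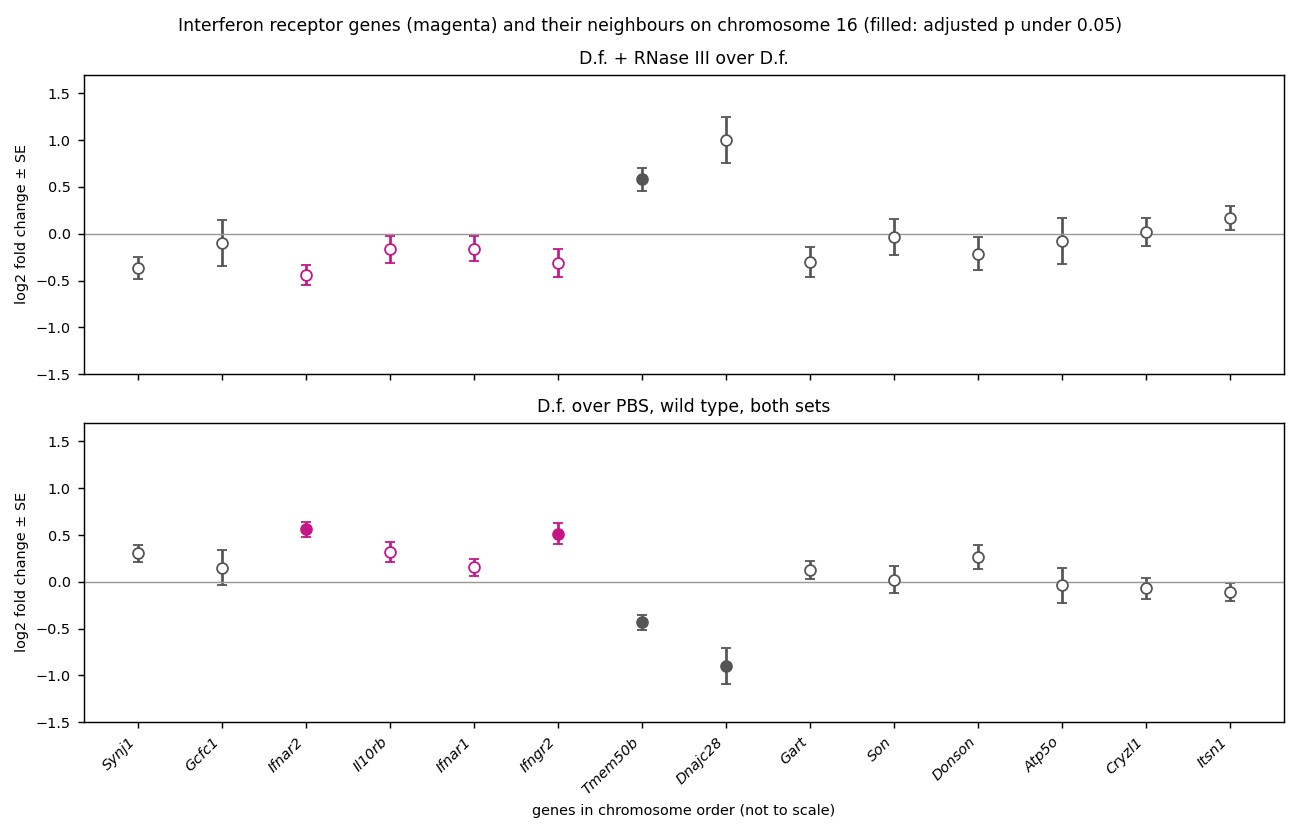
Log2 fold changes of the 14 tested genes around the receptor genes of chromosome 16, in chromosome order from Synj1 to Itsn1 (x axis, equally spaced; y axis, log2 fold change with bars of ± 1 SE). The top panel is extract with RNase III over extract alone, the bottom panel extract over PBS in wild-type lungs of both sets. Filled points passed the test and receptor genes are in magenta, with Ifnar2 at 0.56 and Tmem50b at -0.43 in the bottom panel.

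Other genes of the pathway were read from lists drawn up by role, but with earlier results of these data known. Counts of list genes called therefore describe the lists and are not independent evidence. Of 5 further receptor chains tested, 1 was higher with extract than with PBS in the RNase III set, Il10ra, the ligand-binding partner of IL10RB in the IL-10 receptor. Il10ra had 23.2 and 23.8 CPM with extract and RNase III, 56.4 and 94.0 CPM with extract alone and 21.9 and 20.2 CPM with PBS. It was higher with extract by 1.84 ± 0.23 (adjusted p = 0.00366) and lower with RNase III added, at -1.68 (adjusted p = 0.00709). Il28ra, the ligand-binding chain of the lambda receptor, had 16.9 and 18.3 CPM with extract and RNase III, 18.7 and 17.6 CPM with extract alone and 21.1 and 21.6 CPM with PBS, and it differed by -0.36 ± 0.10 over both sets (adjusted p = 0.0528). Between extract and PBS in the RNase III set Il28ra did not pass, at -0.24 ± 0.13 (adjusted p = 0.326), nor did any of the further chains tested there other than Il10ra. The difference of Il10ra between knockout and wild-type lungs with extract was -0.97 ± 0.17 (adjusted p = 0.0602).

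Of 8 transducers, genes of STATs, JAK3 and IRF9, 5 were higher with extract than with PBS in the RNase III set, and 3 were lower with RNase III added. Stat2, which joins IRF9 in the complex activated by type I interferon, had 115 and 109.6 CPM with extract and RNase III, 443 and 739.8 CPM with extract alone and 115 and 72.4 CPM with PBS. It was higher with extract by 2.66 ± 0.30 (adjusted p = 0.00242), and lower with RNase III added at -2.40 (adjusted p = 0.00466). Irf9 was higher with extract by 1.55 ± 0.13 (adjusted p = 0.000897) and Stat4, which IL-12 activates, by 1.28 ± 0.26 (adjusted p = 0.0241). Each of these differences was larger than that of any receptor chain or kinase tested among the members. Between knockout and wild-type lungs with extract Stat2 was lower at -2.02 ± 0.33 (adjusted p = 0.0488), while Irf9, at -1.26 ± 0.25, did not pass (adjusted p = 0.0809). Without knockout replicate 5, and likewise without replicate 6, 3 of the 8 were lower.

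Of 13 feedback regulators and phosphatases of the receptors and kinases, 7 were higher with extract in the RNase III set and 7 were lower with RNase III added. Usp18, which docks on IFNAR2 and limits type I signalling, had 15.9 and 16.3 CPM with extract and RNase III, 166 and 269 CPM with extract alone and 25.3 and 9.59 CPM with PBS. It had 13.8 and 8.85 CPM in knockout lungs with extract, 234 and 173 CPM in wild-type lungs with extract, 6.56 CPM in the knockout lung with PBS and 8.88 CPM in the wild-type lung with PBS. All 4 wild-type libraries with extract alone lay far above the other 8. Usp18 was higher with extract by 3.65 ± 0.45 in the RNase III set (adjusted p = 0.00323), and lower in knockout than in wild-type lungs with extract at -4.17 ± 0.27 (adjusted p = 0.00715). Socs1, which blocks JAK1, JAK2 and TYK2, was higher with extract by 2.82 ± 0.35 (adjusted p = 0.00323) and lower in knockout lungs with extract at -1.89 ± 0.23 (adjusted p = 0.0258). The phosphatase genes Ptpn6 and Ptprc, both expressed mainly in blood cells, were higher with extract by 1.03 ± 0.13 and 1.21 ± 0.15. Between knockout and wild-type lungs with extract 2 of the 13 were lower, against 4 lower and 2 higher without replicate 5 and 5 lower without replicate 6.

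Of 13 genes that induce type I interferon, 9 were higher with extract and 7 lower with RNase III added in the RNase III set. Ifih1, which encodes the sensor MDA5, was higher with extract by 2.55 and Ddx58, which encodes RIG-I, by 2.24. Between knockout and wild-type lungs with extract 4 were lower, Ddx58 at -2.37, Irf7 at -4.76, Ifih1 at -2.51 and Irf8 at -1.02 (adjusted p = 0.00988 to 0.0478), against 7 without replicate 5 and 9 without replicate 6. Of 13 genes that drive interferon gamma production, 9 were higher with extract and 7 were lower with RNase III added, but none passed between knockout and wild-type lungs with extract. Without replicate 5, 9 of these 13 were lower there and 1 higher, and without replicate 6, 5 were lower and 1 higher. Il12rb1, a receptor chain for IL-12 that is itself attached to TYK2, had 0.716 and 1.34 CPM with extract and RNase III, 4.56 and 8.06 CPM with extract alone and 0.497 and 0.815 CPM with PBS, a difference of 3.23 ± 0.47 between extract and PBS (adjusted p = 0.00623). Eomes, a transcription factor of NK and T cells that is also among the NK markers, was higher by 2.09 ± 0.26. Il12a, a subunit of IL-12, was lower with extract over both sets at -1.22 ± 0.30 (adjusted p = 0.0321), and Il12b, the other subunit, was higher in the RNase III set by 2.48 ± 0.36.

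Genes known as targets of the receptors differed with the treatment and the genotype. All 15 type I interferon targets were higher with extract and lower with RNase III added in the RNase III set, with medians of 4.21 and -4.21, and all 15 were lower in knockout than in wild-type lungs with extract, with a median of -4.65, and also without replicate 5 or replicate 6 (medians -4.83 and -4.34). All 15 interferon gamma targets were higher with extract and lower with RNase III added as well, with medians of 3.41 and -3.21. Between knockout and wild-type lungs with extract 3 of the 15 were lower, Cxcl10 at -6.06 ± 0.54, Cxcl9 at -4.89 ± 0.51 and Socs1, with a median of -1.78 over the list. The 2 knockout libraries were far apart on this list, with 10 of 15 genes more than 2-fold higher in replicate 5 than in replicate 6. Igtp, an interferon-inducible GTPase gene, had 262 and 22.9 CPM in knockout lungs with extract, against 354 and 241 CPM in wild-type lungs with extract. Ciita, the regulator of MHC class II genes, had 174 and 46.1 CPM in knockout lungs with extract, against 76.1 and 70.5 CPM in wild-type lungs with extract. In replicate 5, 4 of the 15 genes were at or above the lower wild-type library, and in replicate 6 none was. Without replicate 5 all 15 were lower in knockout lungs (median -3.19), and without replicate 6, 10 were lower and 1 higher (median -1.07). Many of these genes answer to both types of interferon, and Usp18 and Socs1 stand in more than 1 list. No gene of any of these lists passed between extract with RNase III and PBS, or between extract and PBS in knockout lungs, in edgeR with all libraries. Without PBS replicate 1 of the RNase III set, 3 type I and 2 interferon gamma targets were higher with extract and RNase III than with PBS. In knockout lungs 9 type I and 12 interferon gamma targets were higher with extract than with PBS without replicate 6, while without replicate 5, 3 type I targets were higher and the interferon gamma targets split into 2 higher and 6 lower. Without PBS replicate 2 of the RNase III set, the counts of genes higher with extract than with PBS were 15 and 15 for these targets, 5 of 8 transducers, 7 of 13 feedback genes, 10 of 13 inducers of type I interferon and 8 of 13 drivers of interferon gamma, with 1 of the drivers lower.

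Cells that enter an inflamed lung also carry receptors and kinases, and their markers differed between the groups. The summed level of 4 monocyte markers was 81.6 to 90.1 CPM with extract and RNase III, 244 to 283 CPM with extract alone and 74.7 to 80.6 CPM with PBS. It was 98.6 to 143 CPM in knockout lungs with extract, 149 to 169 CPM in wild-type lungs with extract, 79.6 CPM in the knockout lung with PBS and 55.8 CPM in the wild-type lung with PBS. The sum hides opposite directions. Of the 4 markers, 1 was higher and 2 were lower in knockout than in wild-type lungs with extract, with a median of -1.27. The neutrophil markers summed to 66.0 to 101 CPM with extract and RNase III, 118 to 181 CPM with extract alone and 39.8 to 84.3 CPM with PBS. In the knockout set the neutrophil sums were 80.3 to 262 CPM in knockout lungs with extract, 68.2 to 122 CPM in wild-type lungs with extract, 106 CPM in the knockout lung with PBS and 28.6 CPM in the wild-type lung with PBS, so that knockout and wild-type lungs with extract overlapped. The order of the groups in monocyte markers was that of Jak2 and Ifnar2 in the RNase III set. None of these markers was at 0 in any library, and their part in the differences of Jak2, Ifnar2 and Ifngr2 was not tested.

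Patterns most like those of the members were sought among 13705 genes tested in both sets, by the mean of Pearson's r over the 6 libraries of each set. These values describe 12 libraries that share a few groups, and carry no test. The genes most like Jak2 were Birc3 (mean r = 0.982), Il13ra1 (0.980) and Malt1 (0.976), and those most like Ifnar2 were Nfkbie (0.989), Ncstn (0.985) and Csf1 (0.983). Those most like Ifng were Ptx3 (0.974), Phyh (0.971) and Cd86 (0.967), and those most like Ifngr2 were Isg20l2 (0.983), Ccl4 (0.952) and Tmem128 (0.948). Nfkbie, which encodes an inhibitor of NF-kappaB, was also among the 3 most like Jak1 (0.967), beside Lasp1 (0.969) and Pstpip1 (0.967). Il10rb was most like Ccl9 (0.977), Sh3glb1 (0.963) and Anxa4 (0.954), and Ifnar1 most like Tmem209 (0.950), Eif3m (0.950) and Taf1d (0.949). Ifngr1, the member highest in knockout lungs, was most like Cfp (0.939), Wnk1 (0.921) and Ncoa4 (0.918), and Tyk2 was most like Grk6 (0.937), Pou2f2 (0.922) and Arhgap4 (0.915). With another prior count in the log2 levels, 25 of the 27 genes named stayed among the 3 most like their member, all but Ptx3 and Phyh.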

How the data were processed

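The deposited values were raw read counts per gene, 1 table per library, with no normalization by the authors, as the values and the series' design text show. Per the submitters' processing notes, reads were aligned to mm9 with TopHat2 2.0.8b and counted with HTSeq, with bcl2fastq also named. For HTSeq, neither version nor gene models nor strandedness is stated, so overlapping genes, such as Ifnar2 and Il10rb, cannot be fully told apart. Genes took 23.1% to 28.2% of a library's reads. Reads outside genes made up 27.0% to 40.0%, reads that aligned to more than 1 place 36.8% to 44.6%, and ambiguous reads 0.0552% to 0.172%. Rows of unassigned reads stayed out of library sizes and tests. No libraries of a group agreed within counting error.

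Groups and replicate numbers came from the sample titles. Each set was fitted separately with 1 mean per group, using edgeR 4.0.16 (R 4.3.3), TMM scaling, filterByExpr, quasi-likelihood tests and Benjamini-Hochberg adjustment over all genes tested, with a threshold of 0.05. Wild-type lungs of both sets were also fitted together with the set as a term. Levels of the 2 sets were scaled separately. SE is the log2 fold change over the square root of F, and 95% intervals use its t distribution. Scripts were tested on simulated data. DESeq2 1.42.0, other scaling, other filters, 1 fit over all libraries and leaving out each library were alternatives.

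The members and gene lists were chosen with earlier results of these data known, and 1 gene of the lists is not reported here. Named were the members in every comparison, up to 4 genes of each list with the smallest p for extract over PBS in the RNase III set and for knockout over wild type with extract, and the 3 genes most like each member among those with a mean of at least 1 CPM. Il28ra, Il12a and, for their levels, Gbp2, Igtp, Ciita, Tmem50b and Dnajc28 are named in further comparisons after their values were seen.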

Additional observations from a re-analysis of the deposited data

How the results depend on the processing

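Of 756 values of single members under the alternatives, 686 kept their direction and their side of the threshold, 15 lost a call, 30 gained one and 25 changed sign. All sign changes and all lost calls came from leaving out 1 library. Where that leaves a group with 1 library, it is assumed to vary like the other groups, and with 1 to 3 residual degrees of freedom, 1 where an extract library of the knockout set was left out, the counts of calls moved widely. No paired analysis was possible because the groups compared share no replicate numbers. Between extract and PBS in the RNase III set, 1 to 4 members were called (584 to 3071 genes). Between extract with RNase III and PBS no member was called (0 to 188 genes), and between extract with RNase III and extract alone 0 to 3 members (146 to 2874 genes). In the knockout set, leaving out 1 library gave 0 to 3 members and 0 to 3150 genes for extract over PBS in wild-type lungs, 0 to 2 members and 0 to 2092 genes in knockout lungs, 0 to 6 members and 7 to 3048 genes for knockout over wild type with extract, 0 to 2 members and 0 to 1666 genes for the difference in response, and 2 to 383 genes for knockout over wild type across treatments. Over the wild-type libraries of both sets 3 to 4 members and 1080 to 2428 genes were called. The Ifnb1 difference ranged over 0.125 to 0.271 CPM.

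DESeq2 called 50 genes for extract with RNase III over PBS, 1893 for extract with RNase III over extract alone, 649 and 37 for extract over PBS in wild-type and knockout lungs of the knockout set, 732 and 1 member for knockout over wild type with extract, 212 for the difference in response, and 465 and 1 member for knockout over wild type across treatments. Without the low-count filter edgeR called 10 genes for extract with RNase III over PBS, 391 for extract over PBS in wild-type lungs of the knockout set, 16 for the difference in response and 75 for knockout over wild type across treatments. In 1 fit over all 12 libraries it called 391 genes and 7 genes for extract over PBS in wild-type lungs of the knockout set and for the difference in response. The causes were not tested.

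Members that changed sign when 1 library was left out passed the test on neither side. For extract over PBS, Ifngr1 spanned -0.12 to 0.10 in the RNase III set and -0.040 to 0.10 over both sets. For extract with RNase III over PBS, the range was -0.095 to 0.17 for Ifnar1, -0.076 to 0.14 for Ifngr1 and -0.20 to 0.025 for Tyk2. For extract with RNase III over extract alone, it was -0.037 to 0.11 for Ifngr1 and -0.33 to 0.013 for Il10rb. In knockout lungs, extract over PBS gave -0.12 to 0.14 for Ifnar1, -0.10 to 0.072 for Ifnar2, -1.15 to 0.64 for Ifng, -0.14 to 0.20 for Ifngr2 and -0.068 to 0.051 for Jak1. For knockout over wild type with extract, the range was -0.070 to 0.0018 for Il10rb and -0.19 to 0.087 for Tyk2, and across treatments -0.035 to 0.013 for Il10rb, -0.10 to 0.047 for Jak1 and -0.047 to 0.16 for Tyk2.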
